A study of Mus musculus with 17 samples.

Results

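The genes described here are 35 myeloid effector genes that are known targets of, or depend on, the transcription factor PU.1. They are 35 of the 47643 gene rows of the count table and were chosen by symbol. The rule names no measured value, but the choice was made with earlier results of these data known. They fall into Fc receptors and their signalling adaptors, the β2 integrin CD11b/CD18, the phagocyte NADPH oxidase, microbe-sensing receptors, kinases and adaptors, lysosomal and lipid-mediator enzymes, leukocyte surface and cytoskeletal proteins, and the transcription factor Mef2c. All 35 had enough counts to be tested.

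RNA was sequenced from mouse bone marrow cells sorted as cKit+ Lymph- Ery- HSPC, which are stem and progenitor cells depleted of lymphoid and erythroid cells. The series holds 3 libraries of URE[delta]/+;Tet2-/- mice (URE het Tet2 KO) and 2 of URE[delta]/+;Tet2+/- mice (URE het Tet2 het), all 5 labelled AML. It also holds 3 libraries each of URE[delta]/+;Tet2+/+ (URE het), URE+/+;Tet2-/- (Tet2 KO), URE+/+;Tet2+/- (Tet2 het) and URE+/+;Tet2+/+ (WT) mice, all 12 labelled Normal. The URE is an upstream enhancer of Spi1, the gene of PU.1, and Tet2 encodes an enzyme that oxidises methylated cytosine in DNA. The controls are described as age-matched; the age, the kind of Tet2 allele (germline or conditional) and the sex of each animal are not stated in these sources. Every AML library carried both lesions and no Normal library did, so the effect of disease and that of carrying both lesions cannot be told apart. The labels do not say that each library came from its own mouse, so p-values measure the spread between these libraries. In these bulk samples, fewer cells of a type and less RNA per cell cannot be told apart.

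The sample titles are numbered 1 to 17. Numbers 1 to 7 hold WT replicates 1 and 2 and replicate 1 of each other genotype, and numbers 8 to 17 hold the rest. The labels do not call these ranges batches, but the Normal libraries of the ranges stood apart, and for that reason the values within a range are given beside the results. Total gene counts were 21.1 to 38.3 M (M for 1e+06) per library. Tet2 transcripts were at 112 to 176 CPM (counts per M counts of a library, after scaling for library composition) in URE het Tet2 KO, 156 to 234 CPM in URE het Tet2 het, 80.2 to 86.3 CPM in Tet2 KO, 92.5 to 114 CPM in Tet2 het, 129 to 176 CPM in URE het and 108 to 133 CPM in WT libraries. The part of Tet2 that was deleted is not stated, so its total count does not check the labels.

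PU.1 is an ETS-family factor that binds purine-rich DNA around a GGAA core and opens enhancers of myeloid genes as progenitors commit to granulocytes and macrophages. Its targets arm these cells to recognise, engulf and kill microbes. The dose of PU.1 matters in bone marrow: the factor is needed at a low level in B cell precursors and at a high level in macrophages, and mice with strongly reduced PU.1 develop AML.

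Promoter sequence from RefSeq (GRCm38.p6) was found for 27 of the 35 genes, in 34 windows of 300 bases that run from 250 bases before each start to 50 bases after it; some windows of one gene overlap. The motif GAGGAA, a PU.1 core, was searched on both strands and was present in 20 of the 34 windows (58.8%), compared with 9289 of 32851 windows of all genes (28.3%). The C/EBP motif TTGCNNAA was present in 3 of the 34 windows (8.8%) and in 10.8% of all windows. Neither search says whether a factor binds there. The 250 bases before the start are shown for the 3 genes that hold GAGGAA and were called lower in AML in each of the 23 alternative fits (Laptm5, Aif1 and Mef2c, the last with the first of its windows), and for Itgam, which was not called over all libraries but was low in AML within each range of sample titles. The motif is in capitals (TTCCTC where it lies on the other strand).
Laptm5, chr4:130913066-130913315, plus strand, GRCm38.p6: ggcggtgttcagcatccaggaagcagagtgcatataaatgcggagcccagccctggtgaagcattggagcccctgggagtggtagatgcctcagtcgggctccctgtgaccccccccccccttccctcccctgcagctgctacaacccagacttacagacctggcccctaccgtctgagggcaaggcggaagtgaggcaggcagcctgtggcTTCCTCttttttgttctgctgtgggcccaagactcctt
Aif1, chr17:35176053-35176302, minus strand, GRCm38.p6: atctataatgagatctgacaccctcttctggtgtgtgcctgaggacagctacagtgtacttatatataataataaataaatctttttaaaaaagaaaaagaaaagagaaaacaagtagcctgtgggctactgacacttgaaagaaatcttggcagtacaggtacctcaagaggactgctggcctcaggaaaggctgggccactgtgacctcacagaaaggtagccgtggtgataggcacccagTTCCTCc
Mef2c, chr13:83503784-83504033, plus strand, GRCm38.p6: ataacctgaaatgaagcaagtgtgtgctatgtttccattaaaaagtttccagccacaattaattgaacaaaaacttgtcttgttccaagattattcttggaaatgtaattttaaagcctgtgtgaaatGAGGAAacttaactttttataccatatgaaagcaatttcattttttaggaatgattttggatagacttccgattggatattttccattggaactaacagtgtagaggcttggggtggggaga
Itgam, chr7:128062390-128062639, plus strand, GRCm38.p6: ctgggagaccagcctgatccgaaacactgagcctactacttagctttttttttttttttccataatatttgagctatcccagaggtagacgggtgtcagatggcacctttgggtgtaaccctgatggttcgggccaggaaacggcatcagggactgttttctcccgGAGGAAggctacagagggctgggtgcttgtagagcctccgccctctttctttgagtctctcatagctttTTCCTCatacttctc
The first base of the motif lies 38 bases before the start in Laptm5, 7 bases before it in Aif1, 122 bases before it in Mef2c, and 84 and 15 bases before it in Itgam. Of the 7 genes called in AML below, Ctss, Laptm5, Aif1 and Mef2c hold GAGGAA in at least 1 window, while the windows of Lyz2, Cd180 and Fcgr2b hold none.

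Spi1 itself was at 98.6, 7.83 and 12.2 CPM in URE het Tet2 KO replicates 1, 2 and 3, and at 21.6 and 34.9 CPM in URE het Tet2 het replicates 1 and 2. The Normal libraries had 90.9 to 136.8 CPM in numbers 1 to 7 and 45.3 to 63.1 CPM in numbers 8 to 17. AML libraries other than URE het Tet2 KO replicate 1 were thus below every Normal library, and that 1 library was within the Normal libraries of its range. Over all 17 libraries the log2 fold change of AML over Normal was -1.25 ± 0.52 (approximate SE; edgeR adjusted p = 0.135), which did not pass the threshold of 0.05.

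In AML the lysozyme gene Lyz2, the lysosomal genes Laptm5 and Ctss, the microbe-sensing receptor gene Cd180, the macrophage gene Aif1 and the transcription factor gene Mef2c fell, and the inhibitory Fc receptor gene Fcgr2b rose. These 6 genes are 17.1% of the 35, while 4.02% of the 19951 genes tested fell; the 1 gene that rose is 2.86% of the 35, while 6.94% of all genes tested rose (edgeR quasi-likelihood test, Benjamini-Hochberg adjusted p under 0.05 over all genes). The log2 fold change was negative for 30 of the 35 genes and positive for 5, with a median of -0.52, compared with 0.05 over all genes. With the title range as a term in the model, 15 of the 35 genes fell and 1 rose (45.7% together), where 18.4% of all genes were called in either direction. The shares of all genes given next for other fits likewise count both directions. Within numbers 8 to 17 alone, 14 fell and 1 rose, where 20.9% of all genes were called. In numbers 8 to 17 URE het Tet2 het replicate 2 was the only library of its genotype. It had as much weight there as URE het Tet2 KO replicates 2 and 3 together, and WT replicate 3 was the only WT library. Without URE het Tet2 KO replicate 1, the AML library with the highest Spi1, 15 fell and 1 rose, where 20.1% of all genes were called. Without URE het Tet2 het replicate 1, 4 fell and none rose, where 3.99% of all genes were called. Laptm5, Aif1 and Mef2c were called lower in each of the 23 alternative fits. Where some but not all of the 5 AML libraries lay beyond the Normal libraries for a gene described below, the share of all genes was not computed.

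**Figure D1:**
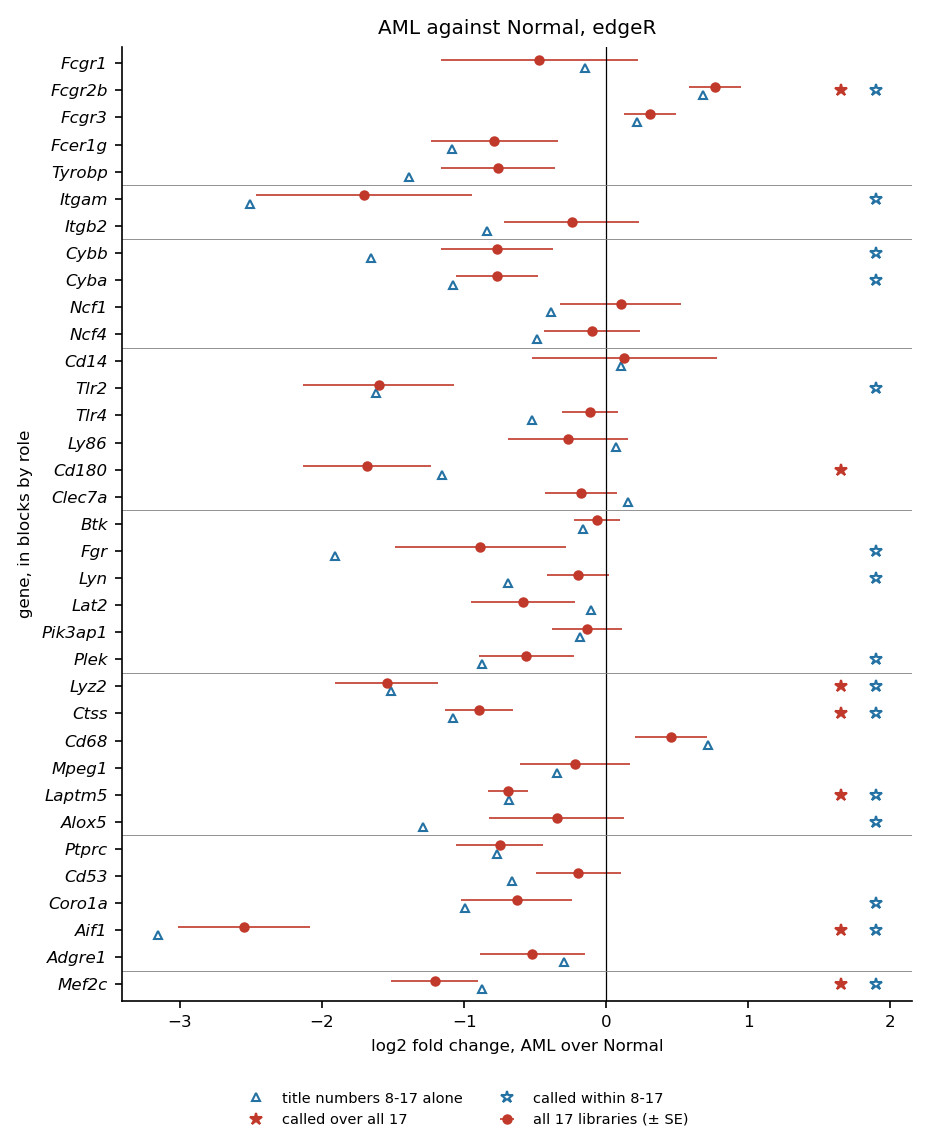
Log2 fold change of AML over Normal for the 35 genes in blocks by role (red points over all 17 libraries, bars ± approximate SE; open blue triangles for title numbers 8 to 17 alone). Red stars mark the 7 genes called over all libraries and blue stars the 15 called within numbers 8 to 17, of which only Fcgr2b lies to the right of 0.

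Among the Fc receptors, which bind antibody-coated particles, Fcgr2b was the only one called, and it rose. Fcgr2b (chromosome 1, 170958617 to 170976547, minus strand) encodes the receptor that carries an inhibitory motif and restrains activation. Its levels were 55.9, 42.3 and 80.8 CPM in URE het Tet2 KO replicates 1 to 3 and 91.0 and 46.9 CPM in URE het Tet2 het replicates 1 and 2, compared with 28.0 to 50.6 CPM in the 12 Normal libraries (median 38.1 CPM). The groups overlapped over all libraries, while each of the 5 AML libraries was above every Normal library of its own title range, a pattern seen in 1.68% of all genes. The log2 fold change was 0.76 ± 0.18 (edgeR adjusted p = 0.0166), a 1.70-fold higher level. Leaving out URE het Tet2 het replicate 1 gave 0.48 (adjusted p = 0.166). Leaving out URE het Tet2 KO replicate 3 gave 0.60 (adjusted p = 0.0709). Fcgr2b is similar in sequence to Fcgr3 and overlaps a predicted gene on the other strand, so its counts are less certain.

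Fcgr3, an activating receptor, was at 50.3 to 182 CPM in AML and 62.0 to 97.0 CPM in Normal libraries, with a log2 fold change of 0.31 ± 0.18 (edgeR adjusted p = 0.299). The high-affinity receptor gene Fcgr1 was almost silent, with at most 0.423 CPM in AML and 0.893 CPM in Normal libraries. Fcer1g encodes the common γ chain that activating Fc receptors need, and Tyrobp encodes DAP12, a partner of other myeloid receptors; both carry an ITAM, the motif that recruits the kinase Syk. Fcer1g ran from 42.5 to 198 CPM in AML and 95.3 to 370.8 CPM in Normal libraries (log2 fold change -0.79 ± 0.45, edgeR adjusted p = 0.281). Tyrobp ran from 25.3 to 294 CPM in AML and 181 to 399 CPM in Normal libraries (-0.76 ± 0.40, adjusted p = 0.248); 4 of the 5 AML libraries were below every Normal library of their range. With the title range as a term, Fcer1g and Tyrobp were both called lower (log2 fold changes -0.86 and -0.93, adjusted p = 0.0342 and 0.0428).

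Itgam (chromosome 7, 128062640 to 128118491, plus strand) encodes CD11b, the α chain that pairs with the β2 chain from Itgb2 to form complement receptor 3. Itgam was at 290.0, 15.1 and 38.8 CPM in URE het Tet2 KO replicates 1 to 3 and 873 and 173 CPM in URE het Tet2 het replicates 1 and 2. The Normal libraries had 1071 to 1752 CPM in numbers 1 to 7 and 221 to 629 CPM in numbers 8 to 17. Each AML library was below every Normal library of its own range, yet the groups overlapped over all 17 libraries. Itgam shared the first trait, below its range in each AML library, only with Laptm5, Ptprc and Aif1 of the 35 (all genes 1.54%). Over all libraries its log2 fold change was -1.70 ± 0.76 (edgeR adjusted p = 0.169), and it was -2.05 (adjusted p = 0.00305) with the title range as a term and -2.51 (adjusted p = 0.035) within numbers 8 to 17. A predicted gene overlaps Itgam on the same strand, so reads of the pair may have been divided. Itgb2 had 29.9 to 274 CPM in AML and 71.2 to 311 CPM in Normal libraries and was not called (-0.24 ± 0.48, adjusted p = 0.798).

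The phagocyte NADPH oxidase makes superoxide from the membrane flavocytochrome of Cybb (gp91phox) and Cyba (p22phox) when cytosolic subunits such as those of Ncf1 (p47phox) and Ncf4 (p40phox) join it. Cybb was at 2035, 513 and 469 CPM in URE het Tet2 KO replicates 1 to 3 and 1027 and 282 CPM in URE het Tet2 het replicates 1 and 2, and at 739.9 to 1923 CPM in Normal libraries (median 1384 CPM). URE het Tet2 KO replicate 1 was above every Normal library of its range and the other 4 AML libraries were below theirs. Its log2 fold change was -0.77 ± 0.39 (edgeR adjusted p = 0.232), with -1.65 (adjusted p = 0.014) within numbers 8 to 17. Cyba had 19.0 to 58.7 CPM in AML and 28.6 to 81.0 CPM in Normal libraries (-0.77 ± 0.29, adjusted p = 0.102), and -1.08 (adjusted p = 0.00887) within numbers 8 to 17. Ncf1 had 261 to 1226 CPM in AML and 272 to 1014 CPM in Normal libraries, and Ncf4 29.4 to 159 CPM in AML and 42.6 to 115 CPM in Normal libraries. Neither was called over all libraries or within numbers 8 to 17.

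Among the microbe-sensing receptors, Cd180 (chromosome 13, 102693558 to 102739629, plus strand) fell. It encodes a Toll-like receptor relative that pairs with the product of Ly86 (MD-1). Its levels were 3.64, 2.04 and 14.3 CPM in URE het Tet2 KO replicates 1 to 3 and 4.06 and 23.7 CPM in URE het Tet2 het replicates 1 and 2, compared with 20.7 to 41.1 CPM in Normal libraries (median 31.4 CPM). All AML libraries but URE het Tet2 het replicate 2 were below every Normal library. The log2 fold change was -1.68 ± 0.45 (edgeR adjusted p = 0.0272), a 3.21-fold lower level. It was not called with URE het Tet2 het replicate 1 left out (-1.31, adjusted p = 0.119), within numbers 8 to 17 (-1.15, adjusted p = 0.24) or without the filter on low counts (-1.70, adjusted p = 0.0539). Leaving out URE het Tet2 het replicate 2 gave -2.58, and leaving out URE het Tet2 KO replicate 3 gave -2.34. Cd180 overlaps Mast4 on the other strand.

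Tlr2, the receptor of bacterial lipoproteins, was at 25.6, 4.04 and 2.93 CPM in URE het Tet2 KO replicates 1 to 3 and 2.21 and 7.01 CPM in URE het Tet2 het replicates 1 and 2, compared with 7.97 to 74.6 CPM in Normal libraries (median 19.6 CPM). All AML libraries but URE het Tet2 KO replicate 1 were below every Normal library; the log2 fold change was -1.60 ± 0.53 (edgeR adjusted p = 0.0662). It was called lower within numbers 8 to 17 (-1.62, adjusted p = 0.00547) and without URE het Tet2 KO replicate 1 (-2.42, adjusted p = 0.002). Ly86 showed no common direction, with 2.79, 39.0 and 51.4 CPM in URE het Tet2 KO replicates 1 to 3, 14.96 and 20.9 CPM in URE het Tet2 het replicates 1 and 2, and 18.6 to 41.8 CPM in Normal libraries. The lipopolysaccharide receptor gene Tlr4 (16.9 to 51.5 CPM in AML, 25.4 to 54.7 CPM in Normal), its co-receptor gene Cd14 (4.06 to 23.5 CPM in AML, 0.433 to 63.5 CPM in Normal) and the β-glucan receptor gene Clec7a (9.81 to 22.9 CPM in AML, 11.4 to 43.9 CPM in Normal) were not called; their log2 fold changes were -0.11, 0.13 and -0.18.

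No kinase or adaptor gene was called over all libraries. Fgr, a Src-family kinase gene of myeloid cells, was at 105, 4.24 and 14.7 CPM in URE het Tet2 KO replicates 1 to 3 and 56.6 and 17.5 CPM in URE het Tet2 het replicates 1 and 2, compared with 28.4 to 128 CPM in Normal libraries. In 4 of the 5 AML libraries it was below every Normal library of the range, and its log2 fold change was -0.89 ± 0.60 (edgeR adjusted p = 0.379), with -1.91 (adjusted p = 0.0423) within numbers 8 to 17. Lyn, another Src-family kinase gene, and Plek, which encodes the protein kinase C substrate pleckstrin, were called lower within numbers 8 to 17 (-0.69 and -0.88, adjusted p = 0.0217 and 0.0436). Over all libraries their log2 fold changes were -0.20 (adjusted p = 0.621) and -0.56 (adjusted p = 0.31). The Tec-family kinase gene Btk (45.3 to 106 CPM in AML, 77.1 to 102 CPM in Normal), the adaptor gene Lat2 (0.813 to 6.62 CPM in AML, 2.58 to 5.23 CPM in Normal) and Pik3ap1, which links receptors to phosphoinositide 3-kinase (19.1 to 46.8 CPM in AML, 19.0 to 44.8 CPM in Normal), were not called.

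Lyz2 (chromosome 10, 117277331 to 117282321, minus strand), the gene of the bacterial wall enzyme lysozyme, had the highest level of the 35 per kilobase of exon, with a Normal median of 6208 CPM per kilobase. It was at 1291, 2560 and 4234 CPM in URE het Tet2 KO replicates 1 to 3 and 3304 and 1548 CPM in URE het Tet2 het replicates 1 and 2, compared with 3330.0 to 12050 CPM in Normal libraries (median 8170 CPM). All AML libraries but URE het Tet2 KO replicate 3 were below every Normal library. Lyz2 changed by a log2 fold change of -1.54 ± 0.36 (edgeR adjusted p = 0.0146), a 2.92-fold lower level, and the gene missed the threshold with limma voom (-1.37, adjusted p = 0.0775). Its relative Lyz1 is similar in sequence, so the counts are less certain.

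Laptm5 (chromosome 4, 130913125 to 130936141, plus strand) encodes a lysosomal membrane protein of blood cells that promotes turnover of immune receptors. It was at 206, 120.4 and 183 CPM in URE het Tet2 KO replicates 1 to 3 and 111 and 124 CPM in URE het Tet2 het replicates 1 and 2, compared with 207 to 276 CPM in Normal libraries (median 221 CPM). Laptm5 was the only one of the 35 whose AML and Normal libraries did not overlap over all 17, as in 0.692% of all genes; the highest AML and lowest Normal values nearly met. None of the 35 had all AML libraries above all Normal libraries, as 0.827% of all genes had. Its log2 fold change was -0.69 ± 0.14 (edgeR adjusted p = 0.00756), a 1.61-fold lower level. It ran from -0.77 to -0.62 over the 23 alternatives and was called in each.

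Ctss (chromosome 3, 95526786 to 95556403, plus strand), the gene of the lysosomal protease cathepsin S, was at 7.82, 8.52 and 17.3 CPM in URE het Tet2 KO replicates 1 to 3 and 15.8 and 9.72 CPM in URE het Tet2 het replicates 1 and 2, compared with 13.6 to 41.2 CPM in Normal libraries (median 21.2 CPM). In 3 of the 5 AML libraries it was below every Normal library; the groups overlapped. The change was -0.89 ± 0.24 as a log2 fold change (edgeR adjusted p = 0.0283). The call was lost on leaving out either URE het Tet2 het library, replicate 1 (-1.09, adjusted p = 0.0517) or replicate 2 (-0.75, adjusted p = 0.0806). It was also lost on leaving out URE het Tet2 KO replicate 2 (-0.84, adjusted p = 0.0692) and with limma voom (-0.76, adjusted p = 0.168). Cd68, the gene of a macrophage lysosomal membrane protein, was at 11.03, 12.8 and 40.5 CPM in URE het Tet2 KO replicates 1 to 3 and 35.02 and 32.2 CPM in URE het Tet2 het replicates 1 and 2, compared with 12.7 to 30.6 CPM in Normal libraries (0.46 ± 0.25, adjusted p = 0.268). Mpeg1, which encodes the pore-forming protein perforin-2, spread from 31.6 to 402 CPM in AML and 96.5 to 222 CPM in Normal libraries, with the highest and lowest values both in URE het Tet2 KO. Alox5, the gene of the enzyme that starts leukotriene synthesis, ran from 16.3 to 141 CPM in AML and 32.0 to 132 CPM in Normal libraries and was called lower within numbers 8 to 17 (-1.29, adjusted p = 0.0444).

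Of the leukocyte surface and cytoskeletal genes, Aif1 fell in AML. Aif1 (chromosome 17, 35170991 to 35176068, minus strand) encodes IBA1, a calcium-binding actin-bundling protein of macrophages. It was at 0.296, 0.0287 and 0.0605 CPM (7, 1 and 2 reads) in URE het Tet2 KO replicates 1 to 3 and 0.455 and 1.38 CPM (14 and 65 reads) in URE het Tet2 het replicates 1 and 2. Normal libraries had 1.02 to 4.03 CPM (33 to 141 reads). All AML libraries but URE het Tet2 het replicate 2 were below every Normal library. The log2 fold change was -2.55 ± 0.47 (edgeR adjusted p = 0.0042), a 5.85-fold lower level. It ran from -3.22 with URE het Tet2 KO replicate 1 left out to -2.275 with URE het Tet2 het replicate 1 left out.

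Ptprc, the gene of the phosphatase CD45, was at 638, 122 and 336 CPM in URE het Tet2 KO replicates 1 to 3 and 324 and 351 CPM in URE het Tet2 het replicates 1 and 2. The Normal libraries had 665 to 857 CPM in numbers 1 to 7 and 369 to 537 CPM in numbers 8 to 17, so that each AML library was below those of its range. Its log2 fold change was -0.75 ± 0.31 (edgeR adjusted p = 0.133), and -0.76 (adjusted p = 0.0322) with the title range as a term. Coro1a, which encodes an actin-regulating coronin of leukocytes, ran from 38.2 to 306 CPM in AML and 143 to 346 CPM in Normal libraries (-0.63 ± 0.39, adjusted p = 0.326) and was called lower within numbers 8 to 17 (-0.99, adjusted p = 0.0381). The tetraspanin gene Cd53 (104 to 469 CPM in AML, 231 to 635 CPM in Normal) and Adgre1, the gene of the macrophage antigen F4/80 (1.15 to 7.71 CPM in AML, 4.47 to 10.8 CPM in Normal), were not called.

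Mef2c (chromosome 13, 83504034 to 83667080, plus strand) encodes a MADS-box transcription factor active in myeloid and lymphoid progenitors. It was at 24.3, 39.7 and 27.2 CPM in URE het Tet2 KO replicates 1 to 3 and 14.8 and 86.2 CPM in URE het Tet2 het replicates 1 and 2, compared with 63.8 to 119 CPM in Normal libraries (median 95.9 CPM). All AML libraries but URE het Tet2 het replicate 2 were below every Normal library. The log2 fold change was -1.21 ± 0.31 (edgeR adjusted p = 0.0217), a 2.31-fold lower level. It ran from -2.10 with URE het Tet2 het replicate 2 left out to -0.83 with replicate 1 of that genotype left out.

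**Figure D2:**
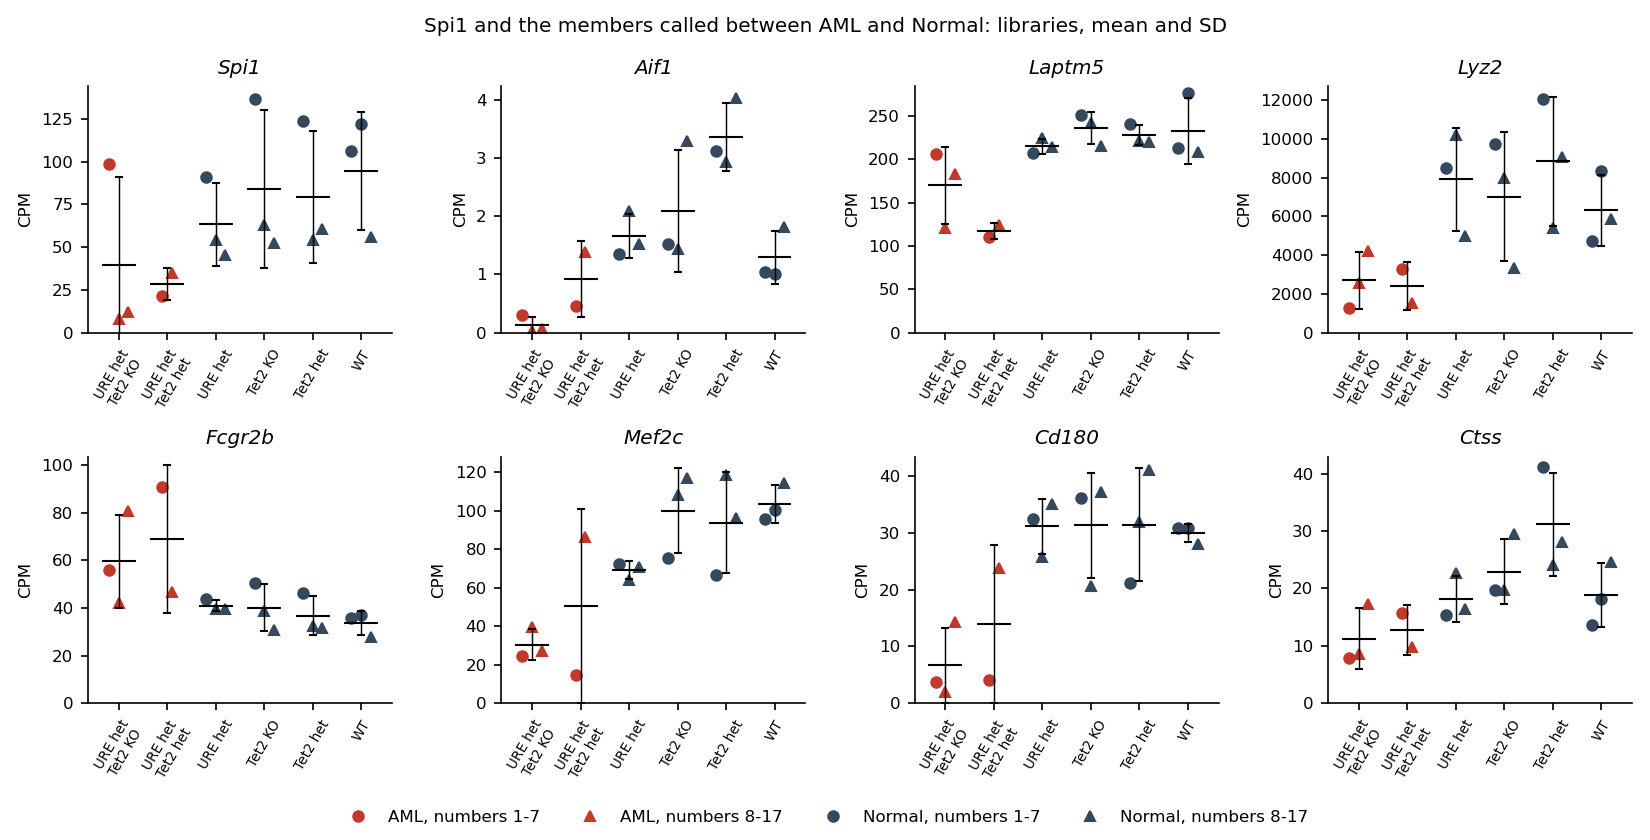
CPM of Spi1 and of the 7 genes called between AML and Normal, by genotype (points are libraries; circles are title numbers 1 to 7, triangles 8 to 17; lines are the mean ± SD, with the axis starting at 0). Laptm5 shows all 5 AML libraries below the 12 Normal libraries, at most 206 against at least 207 CPM, and 3 of the 5 AML libraries of Fcgr2b lie above every Normal library, with the other 2 (42.3 and 46.9 CPM) inside the Normal span.

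The AML libraries differed in which genes were low. Set against the mean Normal level of the same title range on a log scale, URE het Tet2 KO replicate 2 had the lowest values, with a median log2 ratio of -1.23 over the 35 genes. In that library 23 of the 35 genes (65.7%) were below every Normal library of the range, where 29.3% of all genes were, and Itgam was at 4.18% and Tyrobp at 11.2% of the Normal level. The same count was 22 (62.9%, all genes 23.6%) in URE het Tet2 het replicate 2 and 15 (42.9%, all genes 26.1%) in URE het Tet2 KO replicate 3. In numbers 1 to 7 it was 18 (51.4%, all genes 23.7%) in URE het Tet2 KO replicate 1 and 17 (48.6%, all genes 29.2%) in URE het Tet2 het replicate 1.

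URE het Tet2 KO replicate 1, in which Spi1 was at 85.9% of the Normal level of its range, had Ly86 at 11.7%, Cd180 at 12.3%, Lyz2 at 15.6% and Itgam at 21.3%, while Ncf4 was at 185% and Cybb at 127%. URE het Tet2 het replicate 1, with Spi1 at 18.9%, had Tlr2 at 6.97% and Cd180 at 13.8%, while Ncf1 was at 141%. URE het Tet2 KO replicate 3 had Itgam at 10.7% and Mpeg1 at 245%. URE het Tet2 het replicate 2 had Cybb at 24.3%, Lyz2 at 24.6% and Cd53 at 34.2%, with Cd68 at 190.0%. Above every Normal library of the range were 7 of the 35 genes in URE het Tet2 KO replicate 1 (20.0%, all genes 24.1%), 3 in replicate 2 (8.57%, all genes 29.3%) and 7 in replicate 3 (20.0%, all genes 28.6%). In URE het Tet2 het it was 4 genes in each replicate (11.4%, all genes 30.2% in replicate 1 and 29.6% in replicate 2).

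**Figure D3:**
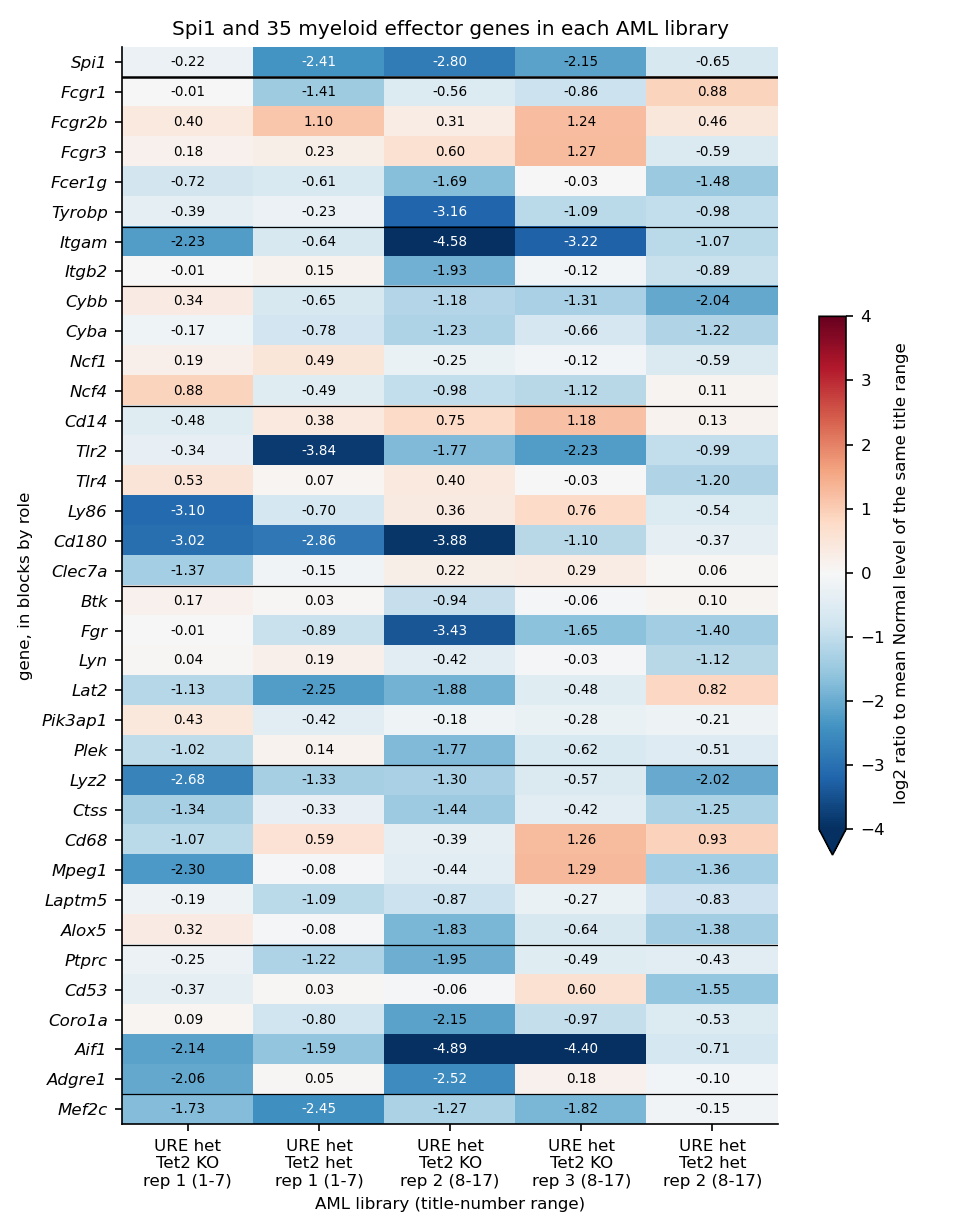
Log2 ratio of each AML library (columns, with its title range) to the mean Normal level of the same range, for Spi1 and the 35 genes in blocks by role. Itgam, Laptm5, Ptprc and Aif1 are below every Normal library of the range in all 5 columns, and Fcgr2b is above every one in all 5. Further genes, such as Lyz2 and Cd180, also have a negative ratio in all 5. Values below the end of the colour scale take its last colour, and Aif1 in URE het Tet2 KO replicates 2 and 3 rests on 1 and 2 reads.

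With both Tet2 copies lost, URE het Tet2 KO was set against Tet2 KO. The former libraries were all labelled AML and the latter all Normal, so the enhancer deletion and disease cannot be told apart here. Only Aif1 was called (lower, as 0.581% of all genes were), at 0.128 ± 0.146 CPM in URE het Tet2 KO and 2.08 ± 1.05 CPM in Tet2 KO (SD, n = 3 each), with a log2 fold change of -4.10 ± 0.70 (edgeR adjusted p = 0.0281). In this comparison 0.977% of all genes were called in either direction. Mef2c (-1.72 ± 0.44, adjusted p = 0.0736), Cd180 (-2.23 ± 0.64, adjusted p = 0.0988) and Itgam (-2.86 ± 1.11, adjusted p = 0.221) did not pass. The call of Aif1 was lost on leaving out any one of the 3 Tet2 KO libraries, and likewise URE het replicate 2 or URE het Tet2 KO replicate 2. Without URE het Tet2 KO replicate 1, 7 of the 35 genes were lower and 1 was higher (22.9% together, all genes 9.05%), and with limma voom 11 were lower and 2 higher (37.1% together, all genes 18.4%).

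With 1 Tet2 copy lost, URE het Tet2 het (n = 2) was set against Tet2 het (n = 3), and edgeR called none of the 35 genes and 0% of all genes; 6 of the 35 had an unadjusted p under 0.05, as did 13.3% of all genes. The smallest p was that of Laptm5, at 117 ± 9.14 CPM in URE het Tet2 het and 227.5 ± 11.7 CPM in Tet2 het (SD; -0.96 ± 0.24, edgeR adjusted p = 0.137). DESeq2 called 4 of the 35 lower, where it called 3.0% of all genes in either direction. In this comparison too the groups were labelled AML and Normal, so the enhancer deletion and disease cannot be told apart.

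For single lesions edgeR called none of the 35 and 0% of all genes: URE het, Tet2 KO and Tet2 het were each compared with WT, 3 libraries each. The number of the 35 with an unadjusted p under 0.05 was 1 in URE het (Cd14), 0 in Tet2 KO and 2 in Tet2 het. Of all genes 3.77%, 2.57% and 2.93% in the same order had one. Neither DESeq2 nor limma voom called any of the 35. In URE het against WT DESeq2 called 0.0351% of all genes and limma voom 0.421%. The median log2 fold changes of the 35 were -0.08, -0.09 and 0.00. Spi1 was at 63.4 ± 24.2 CPM in URE het and 94.6 ± 34.5 CPM in WT libraries (SD, n = 3 each; -0.58 ± 0.72, adjusted p = 1.0). WT has 2 of its 3 libraries in numbers 1 to 7 and each of the other genotypes has 1, so these means carry the difference between the ranges. In numbers 1 to 7 Spi1 was at 90.9 CPM in URE het and at 105.9 and 122 CPM in WT libraries, and in numbers 8 to 17 at 53.9 and 45.3 CPM in URE het and at 55.8 CPM in WT. The range term in the model gave no call of the 35 either. The test of whether the effect of the enhancer deletion differed between Tet2 KO and Tet2 wild-type backgrounds called none of the 35 and 0% of all genes in edgeR, with 4 of the 35 and 8.11% of all genes at an unadjusted p under 0.05. DESeq2 called 1 of the 35, where it called 0.757% of all genes, and limma voom 2, where it called 9.15%. Of the libraries in this test only those of URE het Tet2 KO were labelled AML, so it carries disease as well.

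Among the Normal libraries many of the 35 genes differed between the title ranges, with genotype in the model. Numbers 8 to 17 were lower than numbers 1 to 7 in 17 of the 35 genes (48.6%), where 18.6% of all genes were, and Mef2c alone was higher (0.34 ± 0.12, edgeR adjusted p = 0.0442), where 16.4% of all genes were. Spi1 was lower by a log2 fold change of -1.07 ± 0.09 (edgeR adjusted p = 4e-06). Itgam (-1.88 ± 0.28), Ncf1 (-1.23 ± 0.15), Fgr (-1.20 ± 0.20), Fcer1g (-1.19 ± 0.18) and Itgb2 (-1.18 ± 0.17) had the most negative values among the called genes, with adjusted p of at most 0.000873. Cd14 (-1.78 ± 0.71, adjusted p = 0.0891) and Fcgr1 (-1.31 ± 0.64, adjusted p = 0.129) did not pass. Laptm5, Lyz2, Ctss, Cd180 and Aif1, which were lower in AML, were not called between the ranges. Fcgr2b, which was higher in AML, was among the genes called lower in numbers 8 to 17. For 9 of the 35 genes (Cd14, Coro1a, Fcer1g, Fgr, Itgam, Itgb2, Ncf1, Pik3ap1 and Ptprc) every Normal library of numbers 8 to 17 was below every one of numbers 1 to 7, as in 9.03% of all genes; none of the 35 showed the opposite, as 7.58% of all genes did.

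**Figure D4:**
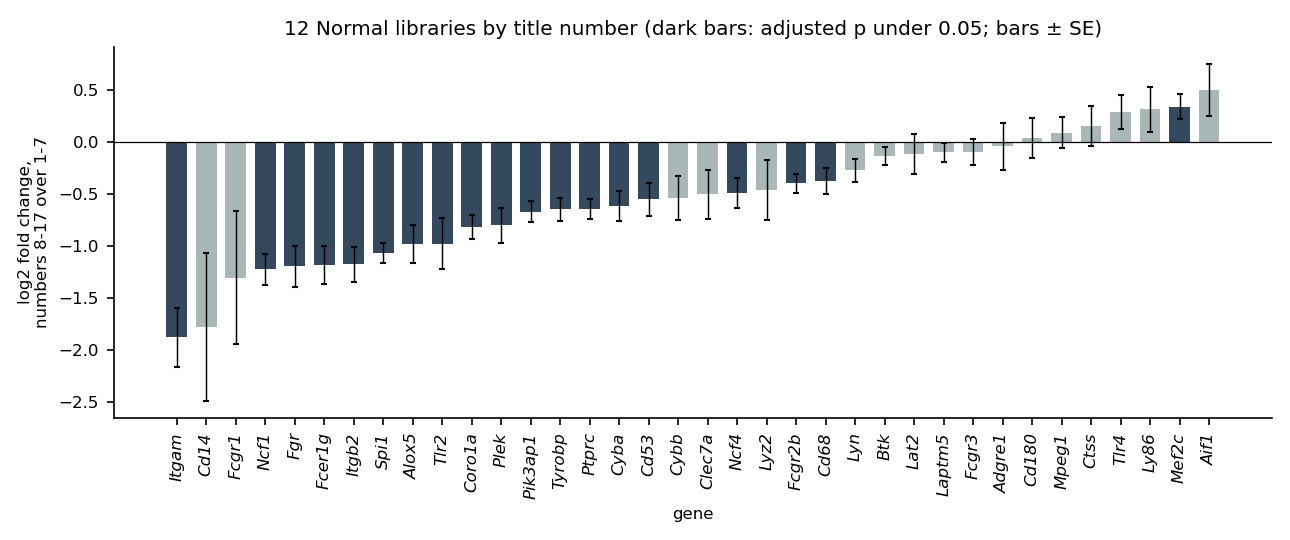
Log2 fold change of title numbers 8 to 17 over 1 to 7 among the 12 Normal libraries (bars ± approximate SE; dark bars passed an adjusted p of 0.05). Itgam stands lowest at -1.88 and Spi1 is at -1.07.

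To ask whether the genes follow Spi1 without disease, each was fitted on log2 Spi1 over the 12 Normal libraries with the title range as a term. None of the 35 and 0% of all genes passed in edgeR; 3 of the 35 (Mpeg1, Tlr4 and Pik3ap1) had an unadjusted p under 0.05, as did 4.59% of all genes. The slope was positive for 30 of the 35 and negative for 5, with a median of 0.46 log2 units per log2 unit of Spi1, compared with 0.00 over all genes. The SE of these slopes ran from 0.231 to 2.41 (median 0.488), so a slope of 0 and a proportional change could not be separated for many genes. With genotype as a further term the slopes of 7 of the 35 passed, all positive (20.0%, all genes 0.515%): Lyz2, Itgb2, Alox5, Cyba, Fcer1g, Ncf1 and Cybb, with slopes of at least 1.92 log2 units per log2 unit of Spi1 (edgeR adjusted p from 0.0118 to 0.0377). The count thus depends on whether genotype is in the model, and the reason was not tested. In each pair of Normal libraries sharing genotype and range, the library with more Spi1 also had the higher summed neutrophil markers (listed below). The sums were 89950 and 41630 CPM in URE het replicates 2 and 3. In Tet2 het replicates 3 and 2 they were 65370 and 36620 CPM. Tet2 KO replicates 2 and 3 had 52210 and 25160 CPM, and WT replicates 2 and 1 had 48370 and 26920 CPM. The part of these markers in the slopes was not tested. Spi1 differed little within a range, from 45.3 to 63.1 CPM in numbers 8 to 17.

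Among the 7 Normal libraries of numbers 8 to 17, Pearson r with Spi1 was positive for 27 of the 35 genes and negative for 8, with a median of 0.329. These correlations were not computed over all genes, so the counts have no background beside them. Over the 35 relations none reached an unadjusted p under 0.05 by exact permutation (two-sided), and the smallest adjusted p was 0.631 for r and 0.659 for Spearman's rho. Itgam had r = 0.678 and rho = 0.571 (exact permutation p = 0.0893 and 0.20), and r was 0.414 without the 2 libraries farthest from the median Spi1. Ly86 had r = -0.729 and rho = -0.75 (exact permutation p = 0.0593 and 0.0663), and r was -0.653 without those libraries. Of the 35 genes, 26 kept the sign of r among the remaining 5 libraries. Without the range term the slopes of 18 genes over the 12 Normal libraries passed, where 35.8% of all genes passed.

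**Figure D5:**
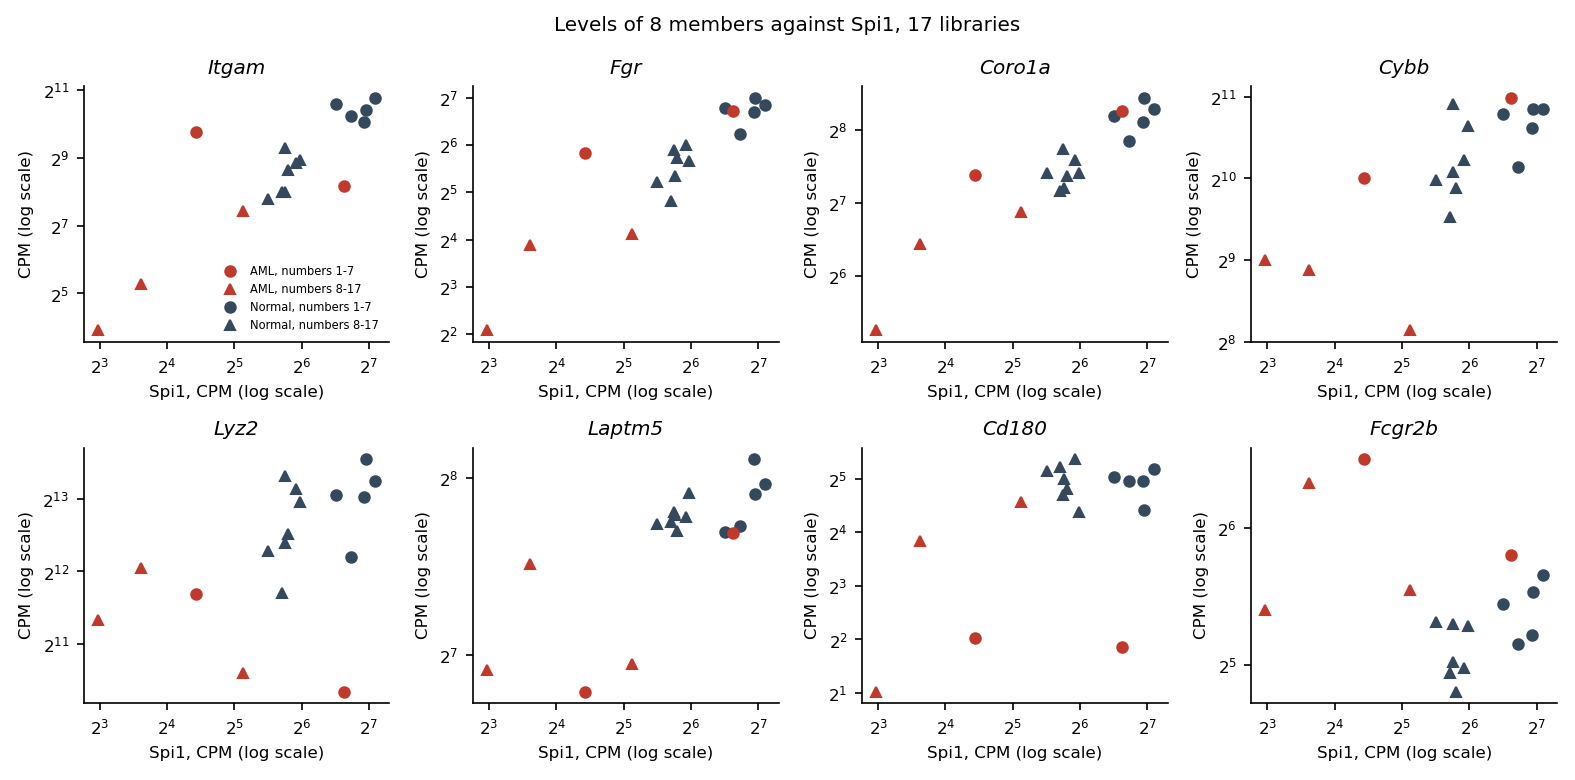
CPM of 8 of the genes against CPM of Spi1 in the 17 libraries, both axes on a log2 scale (AML in red, Normal in dark blue; circles are title numbers 1 to 7, triangles 8 to 17). The Normal triangles lie between 45.3 and 63.1 CPM of Spi1 and the Normal circles between 90.9 and 136.8 CPM, and no Normal library lies between these ranges.

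Other genes of the same pathways were taken from lists chosen by function, and few of each were called in AML. Over all genes 6.94% rose and 4.02% fell, so that 1 call in a list of this size is near the background. Of 8 further genes of the NADPH oxidase and its activators none was called. Of 20 genes of ITAM and Fc receptor signalling, the adaptor gene Card9 rose (0.93 ± 0.22) and the adaptor gene Blnk (-2.70 ± 0.70) and the C-type lectin gene Clec4d (-1.46 ± 0.44) fell. Of 19 genes of the Toll-like receptor pathway, Tlr7 rose (2.02 ± 0.42) and Tlr8 (-2.52 ± 0.47), Tlr3 (-3.17 ± 0.66) and the adaptor gene Ticam2 (-0.92 ± 0.26) fell. These calls had edgeR adjusted p of at most 0.0445.

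Among 8 integrin partners and adaptors, the integrin chain gene Itga4 fell (-0.63 ± 0.18, edgeR adjusted p = 0.0342), and among 6 leukotriene pathway genes the phospholipase gene Pla2g4a fell (-0.80 ± 0.13, adjusted p = 0.00257). Of 22 other PU.1 targets and partners, 2 rose, the transcription factor genes Gfi1 (1.31 ± 0.20, adjusted p = 0.00144) and Cebpa (1.70 ± 0.37, adjusted p = 0.0101), and 4 fell. The 4 were Irf4, Il7r, Spib and Ciita, genes known mainly from lymphoid and antigen-presenting cells; Irf4 was at -2.57 ± 0.45 (adjusted p = 0.00346). Between the title ranges of the Normal libraries, 16 of the 20 ITAM genes, 8 of the 19 Toll-like receptor pathway genes and 11 of the 22 PU.1 targets were lower in numbers 8 to 17.

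Markers of mature and other cell types were called in AML in some lists and not in others; over all genes 6.94% rose and 4.02% fell. Of 9 neutrophil markers 5 fell in AML, and their summed level was 10450 to 33170 CPM in AML and 25160 to 89950 CPM in Normal libraries, with none at 0 in any library. Of 11 tested monocyte, macrophage and dendritic markers 2 rose and 3 fell, with sums of 786.5 to 4973 CPM in AML and 694 to 1619 CPM in Normal libraries; Siglech was at 0 counts in 2 AML libraries. Of 8 mast cell, basophil and eosinophil markers 5 fell (19.6 to 112 CPM in AML, 106 to 283 CPM in Normal), with Gata2 and Fcer1a each at 0 in 1 AML library. Of 8 B cell markers 5 fell (1.45 to 8.41 CPM in AML, 7.36 to 27.9 CPM in Normal), with Pax5, Ms4a1 and Rag1 at 0 in 4 AML libraries each, and at 0 in 1, 2 and 0 Normal libraries in that order. Of 7 tested T and NK cell markers 1 fell, of 6 megakaryocyte markers 2 fell, of 9 stem cell markers 4 fell, of 7 primary granule markers 2 rose, of 8 erythroid markers none was called, and of 5 tested stromal and endothelial markers 1 rose and 1 fell. Cdh5 was at 0 in all 5 AML libraries, and Pf4, Procr and Cd3e in 3 AML libraries each; Cdh5 was at 0 in 1 Normal library, Cd3e in 2, and Pf4 and Procr in none. The T cell gene Cd3e had its highest count of all 17 libraries in AML, with 97 reads in URE het Tet2 KO replicate 3. Summed levels were 18.02 to 91.7 CPM in AML and 61.1 to 151 CPM in Normal libraries for T and NK cell markers, and 1.78 to 36.0 CPM in AML and 16.7 to 36.7 CPM in Normal libraries for megakaryocyte markers. They were 61.3 to 152 CPM in AML and 82.8 to 213 CPM in Normal libraries for erythroid markers, and 18.9 to 135 CPM in AML and 35.6 to 58.2 CPM in Normal libraries for stromal and endothelial markers. The sums were 157 to 329 CPM in AML and 244 to 460.5 CPM in Normal libraries for stem cell markers, and 6103 to 10730 CPM in AML and 2906 to 8981 CPM in Normal libraries for primary granule markers. Between the title ranges of the Normal libraries 4 of the 9 neutrophil markers were lower in numbers 8 to 17, with sums of 25160 to 89950 CPM there and 26920 to 54350 CPM in numbers 1 to 7. Granulocytes and monocytes transcribe many of the 35 genes, and the part of these markers in the results above was not tested.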

How the data were processed

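RNA was sequenced from 17 libraries of sorted mouse bone marrow progenitors. The authors deposited a table of raw counts, with 1 column per library and no normalization, per the file headers and the values. Per the submitters' processing notes, reads were aligned with STAR to GRCm38; the version, annotation, counter and strand setting are not given in the sources used here, so 4 of the 35 genes that overlap another gene on the same strand and 9 that overlap one on the other strand have less certain counts. Of 96004 rows, 47643 were genes; 48361 rows named enh were left out of the tests. Identifiers were matched to GENCODE vM21 (GRCm38) without their version (47224 of 47643; all 35 members, 27 with the same version).

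Counts were scaled by TMM, filtered (filterByExpr, minimum count 10, minimum total 15; 19951 genes) and tested with edgeR 4.0.16 (R 4.3.3; robust quasi-likelihood F test, 1 mean for each of 6 genotypes over 17 libraries), two-sided, with Benjamini-Hochberg adjustment over all genes at 0.05 in each of 9 comparisons. AML against Normal set the mean of the 2 compound genotypes against the mean of the other 4. The SE is the size of the log2 fold change over the square root of F and is approximate. Log ratios of single libraries used a pseudocount of 0.05 CPM. Depth was 21.1 to 38.3 M gene counts (median 32.2). The parts of counting and of the spread between libraries in the errors were not measured. Aif1 rested on 1 to 141 reads per library and Fcgr1 on 0 to 18. Alternatives were DESeq2 size factors, no filter (at least 1 count), DESeq2 1.42.0, limma 3.58.1 voom with quality weights, the title range as a term or numbers 8 to 17 alone, and each library left out. Scripts were tested on simulated counts. The rule for naming genes took all 35 members, Spi1, and up to 3 called genes of each further list by smallest p; library values are given for called members, and Itgam, Cybb, Tlr2, Fgr, Ptprc, Cd68, Ly86 and the 8 genes plotted against Spi1 were picked for such detail after their values were seen. Ticam2, Il7r, Spib and Ciita are named beyond that rule. The members and lists were chosen with earlier results of these data known.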

Additional observations from a re-analysis of the deposited data

Results flagged for a closer look

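Each gene was checked for a library far from the rest of its group among the 5 Normal libraries of title numbers 1 to 7, the 7 of numbers 8 to 17 and the 5 AML libraries, in 108 checks; chance alone would mark about 1 in 20. The check marked 4. Cd14 was at 63.5 CPM in WT replicate 2, far above the other Normal libraries of numbers 1 to 7. Mpeg1 was at 102 CPM in URE het replicate 1, far below the other Normal libraries of that range. Clec7a was at 11.4 CPM in Tet2 het replicate 3, below the other Normal libraries of numbers 8 to 17. Fcgr1 was at 0.0 CPM (0 reads) in URE het replicate 3 of the same range, where a count of 0 allows up to 0.0866 CPM (3 reads), counting error only.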

How the results depend on the processing

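Shares in brackets are those of all genes called under the same setting. AML against Normal called 7 of the 35 genes; the count was 16 with the title range as a term (18.4%), 15 within numbers 8 to 17 (20.9%), 10 with DESeq2 (16.3%), 6 with limma voom (7.81%), 6 without the filter (5.75%) and 4 to 16 with 1 library left out (3.99% to 20.1%). For URE het Tet2 KO against Tet2 KO it was 1 (0.977%), and 4 with DESeq2 (6.07%), 13 with limma voom (18.4%), 3 with the range term (2.08%) and 0 to 8 with 1 library left out (at most 9.05%). For URE het Tet2 het against Tet2 het it was 0, and 4 with DESeq2 (3.0%), 1 with the range term (0.727%) and 0 to 3 with 1 library left out (at most 5.79%), where a lone compound library was assumed to vary like the other groups. For the difference of the enhancer effect it was 0, and 1 with DESeq2 (0.757%), 2 with limma voom (9.15%) and 0 to 1 with 1 library left out (at most 1.4%). The slope on Spi1 called 0 genes, 7 with genotype as a further term (0.515%), 17 over all 17 libraries (30.9%) and 18 without the range term (35.8%); it stayed at 0 with 1 library left out or within numbers 8 to 17. The last 2 alternatives of the slope, without the range term and within numbers 8 to 17, were chosen after seeing the data. Between the title ranges the count was 18, where 18.6% of all genes were lower and 16.4% higher in numbers 8 to 17. It was 14 to 20 with 1 library left out (25.1% to 35.2%). Single lesions against WT gave 0 under each alternative run, where URE het against WT called 0.0351% of all genes with DESeq2 and 0.421% with limma voom. The causes of these moves were not tested.

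Genes that were not called and changed sign in AML against Normal were as follows, as log2 fold changes. With 1 library left out, the ranges were -0.976 to 0.101 for Itgb2, -0.66 to 0.452 for Ncf1, -0.726 to 0.06 for Ncf4, -0.76 to 0.502 for Cd14, -0.419 to 0.09 for Tlr4, -0.577 to 0.001 for Ly86, -0.209 to 0.044 for Btk, -0.704 to 0.086 for Lyn, -0.877 to 0.031 for Mpeg1, -1.122 to 0.004 for Alox5 and -0.931 to 0.149 for Cd53. Ncf1 was also at -0.126 with limma voom, -0.045 with the range term and -0.386 within numbers 8 to 17. Within numbers 8 to 17 Ly86 was at 0.071 and Clec7a at 0.151. No paired analysis was possible because the replicate numbers were given in accession order and pair no libraries. Leaving out the 2 libraries farthest from the median Spi1 left 0 correlations past the threshold.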

Other observations

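The table also held rows whose names join a gene identifier and the letters enh, 179 of them for 28 of the 35 genes; their coordinates and meaning are not given in the sources used here, and they entered no comparison. Their summed levels are given on the CPM scale of the gene counts. The 33 rows of Cd180 were at 0 to 6.05 CPM (median 0.338 CPM) in AML and 1.89 to 13.6 CPM in Normal libraries, and 4 of the 5 AML libraries were below every Normal library. The 36 rows of Mef2c were at 1.46 to 14.1 CPM in AML and 6.48 to 22.8 CPM in Normal libraries, with 4 of 5 AML libraries below. The single row of Lyz2 was at 2.11 to 14.9 CPM in AML and 5.75 to 41.8 CPM in Normal libraries, with 4 of 5 below. The rows of Laptm5, Aif1 and Ctss, also called lower as genes, reached at most 0.169, 0.195 and 0.149 CPM in AML. For these genes no AML library was below every Normal library. The 6 rows of Fcgr2b were at 3.53 to 7.68 CPM in AML and 1.31 to 5.21 CPM in Normal libraries, with 3 of 5 above every Normal library. The 7 rows of Ncf1, which was not called as a gene, were at 9.98 to 18.8 CPM in AML and 5.71 to 11.7 CPM in Normal libraries, with 3 of 5 above. These genes were picked after their values were seen, and no test was made.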
